A study of Mus musculus with 8 samples.

Results

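Loss of Ssrp1 and loss of Usp7 were set side by side in mouse E14 embryonic stem cells (ESCs), a pluripotent cell line of 129 background whose strain the labels spell 12910la. Messenger RNA was sequenced in 8 libraries, 4 groups of 2, and all 8 of the series' 8 libraries entered the comparison. The Ssrp1 experiment compared cells labelled control with cells in which Ssrp1 was cut with Cas9 and a guide RNA. The Usp7 experiment compared its own cells labelled control with cells transfected with 1000 ng of a pSuper puro plasmid carrying a short hairpin RNA against Usp7. Those cells were selected from 24 h after transfection with 1 µg/ml puromycin for 3 days. All groups shared gelatin-coated plates and medium with 15% serum and 10 ng/ml LIF. The labels do not say how many knockout clones were used, whether the Usp7 controls received an empty plasmid or puromycin, or whether replicates came from separate cultures. All p-values therefore rest on the spread of these libraries alone, which may be technical. The quantity of interest was the difference between effects, the Ssrp1 effect (knockout over its control) minus the Usp7 effect (knockdown over its control), on the log2 scale. A positive difference means that a gene stood higher, relative to its own controls, in the Ssrp1 experiment.

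Ssrp1 and Supt16 form FACT, a histone chaperone that takes apart and rebuilds nucleosomes ahead of and behind RNA polymerase. Usp7 is a deubiquitinase best known for stabilising Mdm2 and p53 and for binding noncanonical polycomb complexes, among them PRC1.6, which keeps germline genes silent in ESCs and whose Mga and Max subunits bind the E-box letters CACGTG while E2f6 binds an E2F-like sequence. A small share of cultured ESCs enters at any time a 2-cell-like state that expresses genes of the cleavage-stage embryo, such as the Zscan4 and Usp17l families.

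The germline list held more genes shared between the experiments than any other list examined, so the start-site regions of some of them are shown first. Ddx4, Mael, Taf7l, Slc25a31 and Tex101 are the 5 genes that rose in both experiments and also differed in size of effect. Dazl rose in both without a difference that passed the test. The sequences run from 250 bases before to 50 bases after the start, 5′ to 3′ on the gene's strand, and come from RefSeq on GRCm38.p6. Capitals mark CACGTG, and GCGGGA or its reverse complement TCCCGC. They were chosen after the values were seen.
Ddx4: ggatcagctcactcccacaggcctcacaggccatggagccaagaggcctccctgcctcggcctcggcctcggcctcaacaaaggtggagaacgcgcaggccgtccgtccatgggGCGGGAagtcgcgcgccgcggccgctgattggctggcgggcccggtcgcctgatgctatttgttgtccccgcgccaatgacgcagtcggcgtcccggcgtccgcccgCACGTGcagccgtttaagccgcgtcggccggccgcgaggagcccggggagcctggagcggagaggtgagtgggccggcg
Mael: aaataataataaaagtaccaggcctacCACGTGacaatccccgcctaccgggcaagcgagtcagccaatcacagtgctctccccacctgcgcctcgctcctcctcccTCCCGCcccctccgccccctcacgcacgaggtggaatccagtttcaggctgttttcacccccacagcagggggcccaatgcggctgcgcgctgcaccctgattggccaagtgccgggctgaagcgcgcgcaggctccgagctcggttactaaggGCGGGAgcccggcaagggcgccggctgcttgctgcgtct
Taf7l: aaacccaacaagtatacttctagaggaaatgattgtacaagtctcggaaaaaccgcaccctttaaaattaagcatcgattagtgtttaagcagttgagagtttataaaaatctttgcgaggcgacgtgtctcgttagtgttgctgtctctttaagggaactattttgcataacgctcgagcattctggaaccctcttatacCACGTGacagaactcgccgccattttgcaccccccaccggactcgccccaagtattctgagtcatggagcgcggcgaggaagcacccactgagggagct
Slc25a31: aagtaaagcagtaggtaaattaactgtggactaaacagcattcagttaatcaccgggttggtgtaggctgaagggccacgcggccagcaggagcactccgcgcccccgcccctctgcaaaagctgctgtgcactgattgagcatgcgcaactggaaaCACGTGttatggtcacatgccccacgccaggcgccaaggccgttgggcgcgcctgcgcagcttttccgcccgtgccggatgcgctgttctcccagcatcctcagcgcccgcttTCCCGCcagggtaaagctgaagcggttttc
Tex101: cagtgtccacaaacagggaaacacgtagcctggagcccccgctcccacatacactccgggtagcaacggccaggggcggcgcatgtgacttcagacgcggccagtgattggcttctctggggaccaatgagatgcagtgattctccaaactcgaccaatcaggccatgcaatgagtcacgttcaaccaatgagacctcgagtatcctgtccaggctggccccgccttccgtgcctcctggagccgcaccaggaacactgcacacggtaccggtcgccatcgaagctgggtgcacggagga
Dazl: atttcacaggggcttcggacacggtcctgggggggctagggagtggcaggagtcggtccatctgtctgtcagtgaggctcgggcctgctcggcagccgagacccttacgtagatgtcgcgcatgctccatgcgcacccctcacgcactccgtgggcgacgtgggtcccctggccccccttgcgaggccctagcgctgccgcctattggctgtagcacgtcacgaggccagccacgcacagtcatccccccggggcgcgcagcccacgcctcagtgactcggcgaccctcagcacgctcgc
The windows are chr13:112652261-112652560 (minus strand) for Ddx4, chr1:166238695-166238994 (minus) for Mael, chrX:134476441-134476740 (minus) for Taf7l, chr3:40708621-40708920 (plus) for Slc25a31, chr7:24672001-24672300 (minus) for Tex101 and chr17:50293571-50293870 (minus) for Dazl. CACGTG begins 29 bases upstream of the start in Ddx4, 223 in Mael, 49 in Taf7l and 93 in Slc25a31, and these letters are not in the Tex101 and Dazl windows. Of 17046 tested gene symbols 11739 had such a window, and 1354 of those (11.5%) held CACGTG on either strand. Among tested members of the germline list it was in 17 of 47 windows (36.2%), in 10 of 20 (50%) where the gene rose on Usp7 knockdown and in 7 of 27 (25.9%) where no rise passed the test. Among the genes that rose in both experiments it was in 7 of 22 (31.8%). GCGGGA on either strand was in 38.8% of the windows of all tested genes and in 42.6% of the germline windows. A match describes letters only and no binding was measured.

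Depth was alike across libraries, at 15879056 to 18361130 counts. The transcripts that were targeted checked the labels before any comparison. Ssrp1 stood at 462 and 479 CPM (counts scaled by library size and TMM factors; pairs of values are replicates 1 and 2) in the Ssrp1 controls, against 412 and 123 CPM in the libraries labelled Ssrp1 knockout. Replicate 1 of those was near its controls and replicate 2 well below them. The Ssrp1 effect on Ssrp1 itself was log2 -0.81 ± 0.42 (approximate SE, derived from the test statistic, edgeR adjusted p = 0.26). The cut site is not given, so the transcript level need not follow the protein. Usp7 stood at 371 and 359 CPM in the Usp7 controls but 111 and 122 CPM in the knockdown, a fall by 1.64 ± 0.21 on the log2 scale (adjusted p = 0.0064), against 424 and 439 CPM and 438 and 359 CPM in the Ssrp1 experiment. The difference between effects for Usp7 was log2 1.53 ± 0.29 (adjusted p = 0.037). Supt16, the partner of Ssrp1, differed by only log2 0.01 ± 0.31 between experiments. ESC markers were present in all libraries, their 8 genes summing to 4872 to 11139 CPM, and 4 of 8 fibroblast markers passed the count filter, summing to 16.6 to 57.4 CPM. The Ssrp1 and Usp7 experiments separated on the first principal component, which held 44.2% of the variance, so levels set across experiments cannot be told apart from differences between the cultures. The libraries labelled Ssrp1 knockout were also the least alike, with a within-group SD of 0.652 on the log2 scale against 0.455 in their controls, 0.446 in the Usp7 controls and 0.317 in the knockdown.

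Most genes called in both experiments rose in both. At an adjusted p under 0.05 in 1 fit of all 8 libraries, 1042 of 17052 genes tested (6.11%) were higher and 272 (1.6%) lower in the Ssrp1 experiment (1314 or 7.71% in all), and 74 (0.434%) were higher and 4 (0.0235%) lower in the Usp7 experiment (78 or 0.457% in all). Fitted in its own 4 libraries, the Ssrp1 experiment had 534 higher and 51 lower genes and the Usp7 experiment 376 and 100. The gap in calls between the experiments thus depended on the fit. In the fit of all 8 libraries only 30 genes passed in both. That is 2.28% of the long list of Ssrp1 calls and 38.5% of the short list of Usp7 calls. Of these, 27 rose in both (0.158% of genes tested), Actn3 alone fell in both (0.00586%) and Neurod1 and Eif4g3 moved in opposite directions (0.0117%). The difference between effects itself passed in 171 genes (1.00%), with 104 (0.610%) higher and 67 (0.393%) lower in the Ssrp1 experiment. For 16 of them (0.0938%) neither effect passed alone. With each library's counts corrected for GC content and gene length the split was 76 and 74. Another 1184 genes (6.94%) passed in exactly 1 experiment without a difference that passed, so whether they differ was undecided. The median SE of the difference was 0.50, against 0.36 and 0.35 for the effects alone. Across the 17052 genes the effects correlated weakly (Pearson r = 0.22, Spearman rho = 0.18), and 57.4% of genes had effects of the same sign. These are descriptions across genes, which are not independent and share libraries within each experiment.

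**Figure D1:**
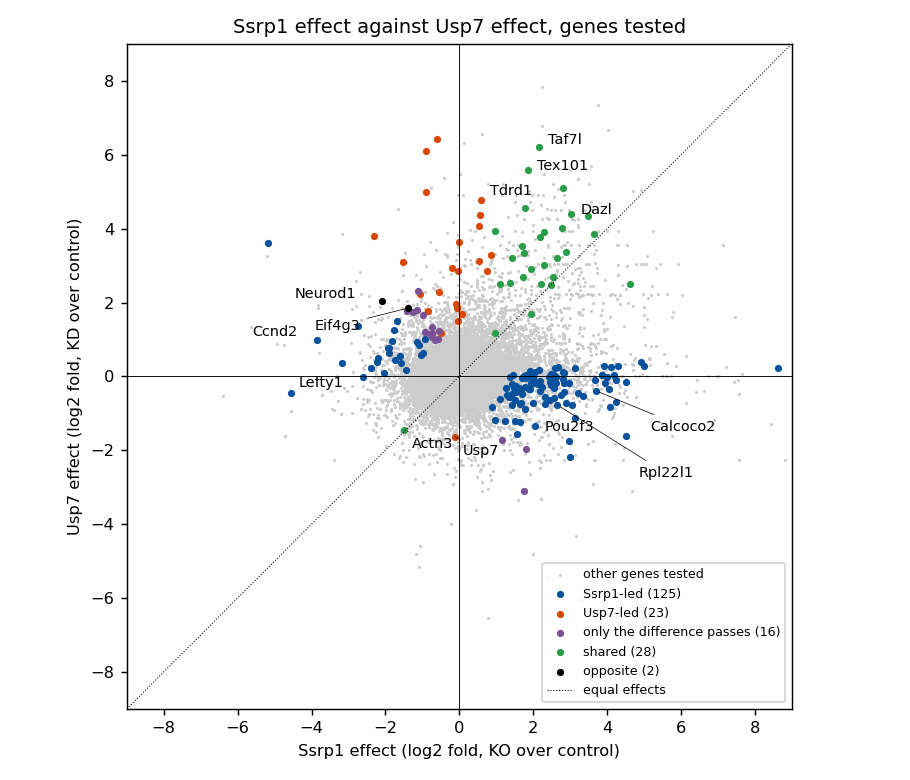
Ssrp1 effect (x axis) against Usp7 effect (y axis), both as log2 fold of perturbed over control, for the 17052 genes tested. Colours mark the genes that passed in both experiments in the same (28) or opposite (2) direction, the 125 Ssrp1-led and 23 Usp7-led genes (1 effect and the difference passed) and the 16 genes for which only the difference passed. Shared genes lie mostly above the dotted line of equal effects, and Ssrp1-led genes mostly near a Usp7 effect of 0. The choice of these genes by their calls favours both patterns.

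With 2 libraries per group these calls leaned on single libraries. All 171 differences kept their sign when each library was left out in turn, which is no independent support since all 8 chose them. Still past the threshold were 10 of the 171 without Ssrp1 control replicate 1, 85 without Ssrp1 control replicate 2, 168 without Ssrp1 knockout replicate 1 and 171 without Ssrp1 knockout replicate 2. In the Usp7 experiment 1 was left without control replicate 1, 29 without control replicate 2, 18 without knockdown replicate 1 and 1 without knockdown replicate 2. Ccnd2 was the gene left in both cases of 1, and every other difference below lost its call without Usp7 control replicate 1 and again without Usp7 knockdown replicate 2. Without knockout replicate 1, whose Ssrp1 level was near its controls, the counts were 203 higher and 186 lower for the difference, 1041 and 416 for the Ssrp1 effect and 286 and 67 for the Usp7 effect. Without knockout replicate 2 the difference gave 685 and 424. The range of the log2 difference over the 8 omissions is given below for the leading genes.

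Of the 27 genes that rose in both experiments, 13 are on a list of germline and meiosis genes and 6 on a list of 2-cell-like genes, and the median effect was log2 2.18 (0.97 to 4.63) in the Ssrp1 experiment and 3.33 (1.18 to 6.20) in the Usp7 experiment. Among all 28 genes shared in direction the Usp7 effect was the larger in 25, against 49.7% of all genes tested. Passing in both experiments favours this and the larger Usp7 median, since far fewer Usp7 effects passed at a similar SE. Both are descriptions only. Dazl, an RNA-binding protein of germ cells, stood at 6.60 and 7.02 CPM in the Ssrp1 controls, 54.5 and 57.1 in the libraries labelled Ssrp1 knockout, 4.25 and 5.38 in the Usp7 controls, then 90.0 and 112 in the knockdown. Both perturbed groups lay far above both control groups without overlap. Its effects were log2 3.03 ± 0.25 (adjusted p = 0.0011) and 4.39 ± 0.26 (adjusted p = 4.4e-05), and the difference of log2 -1.35 ± 0.33 did not pass (adjusted p = 0.085). Sycp2, an axial component of the synaptonemal complex, rose from 0.0717 and 0.354 to 2.17 and 2.94 CPM in the Ssrp1 experiment (7 control counts in all) and from 0.793 and 2.44 to 29.0 and 37.3 CPM in the Usp7 experiment. Its effects of log2 3.48 ± 0.69 and 4.35 ± 0.54 differed by -0.87 ± 0.97 (adjusted p = 0.74). Mageb4, a MAGE-family gene of the X chromosome, rose by log2 2.30 ± 0.50 and 3.02 ± 0.49, and Rhox13, an X-linked homeobox gene, by 2.18 ± 0.49 and 3.77 ± 0.58. Outside the lists, Glis3, a zinc finger transcription factor, rose from 0.574 and 0.767 to 3.53 and 2.77 CPM and from 1.19 and 2.00 to 8.34 and 9.79 CPM. Ccng1, cyclin G1 and a p53 target, rose by 0.97 and 1.18 on the log2 scale (adjusted p = 0.021 and 0.04). The number of genes shared in direction was 2 and 13 without Ssrp1 control replicates 1 and 2, 93 and 76 without knockout replicates 1 and 2, 6 and 8 without Usp7 control replicates 1 and 2, and 7 and 6 without knockdown replicates 1 and 2.

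Actn3, a sarcomeric actinin, was the shared gene that fell. It stood at 74.3 and 63.2 CPM in the Ssrp1 controls, 25.2 and 23.9 in the libraries labelled Ssrp1 knockout, 99.9 and 109 in the Usp7 controls, then 39.7 and 36.7 in the knockdown. All 4 perturbed libraries lay under all 4 controls. The falls were log2 -1.48 ± 0.21 (adjusted p = 0.0036) and -1.45 ± 0.21 (adjusted p = 0.011), and the effects differed by -0.04 ± 0.29 (adjusted p = 0.97).

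Within the germline list the Usp7 effect was the larger in most members. Of 51 tested members (53 listed), 19 rose and 1 (Piwil4) fell in the Ssrp1 experiment, 22 rose and none fell in the Usp7 experiment, and 13 rose in both, by edgeR at an adjusted p under 0.05. At an unadjusted p under 0.05 the Ssrp1 effect passed in 29 members and the Usp7 effect in 36. The list's median effect was log2 0.87 and 2.33, against -0.01 and -0.01 over all genes tested. The Usp7 effect was the larger in 40 of the 51 members, against 49.7% of all genes, and the difference passed in 9, all lower in the Ssrp1 experiment, with a list median of -1.15. The number that rose in the Usp7 experiment was 10 and 11 without Usp7 control replicates 1 and 2 and 14 and 10 without knockdown replicates 1 and 2. The number that rose in the Ssrp1 experiment was 2 and 8 without Ssrp1 control replicates 1 and 2, 17 without either Usp7 control (more than in the Usp7 experiment there), and 11 and 9 without knockdown replicates 1 and 2. The number of differences was 0 without Usp7 control replicate 1 or knockdown replicate 2, 4 without Ssrp1 control replicate 1, 5 without Usp7 control replicate 2 or knockdown replicate 1, and 15 without knockout replicate 2. In the GC and length correction 13 rose in the Ssrp1 experiment and 24 in the Usp7 experiment.

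Several of the differences were in genes of the piRNA pathway, though no such list was tested. Piwil4 and Gpat2, also of that pathway, had no difference that passed (edgeR adjusted p = 0.21 and 0.26). Nor did Tdrkh, which rose by log2 1.42 and 3.20 in the Ssrp1 and Usp7 experiments (difference -1.79 ± 0.48, adjusted p = 0.11). Tdrd1, a Tudor-domain scaffold of piRNA granules, stood at 1.79 and 2.01 CPM in the Ssrp1 controls, 2.44 and 3.22 in the libraries labelled Ssrp1 knockout, 1.81 and 2.44 in the Usp7 controls, then 51.7 and 65.1 in the knockdown. The knockdown libraries stood far above all others, and the libraries labelled Ssrp1 knockout lay slightly above their controls without overlap. The Usp7 effect was log2 4.77 ± 0.33 (adjusted p = 8.3e-05) and the Ssrp1 effect 0.58 ± 0.33 (adjusted p = 0.3), with a difference of -4.20 ± 0.45 (adjusted p = 0.0078; -4.46 to -4.02 with each library left out). Mov10l1, the piRNA-biogenesis helicase, went from 8.04 and 10.3 to 125 and 182 CPM on knockdown, while in the Ssrp1 experiment controls at 25.5 and 19.2 CPM overlapped 24.5 and 39.8 CPM in those labelled knockout. Its difference was log2 -3.54 ± 0.43 (adjusted p = 0.01; -3.96 to -3.25). Piwil2, a PIWI protein, rose from 13.8 and 17.2 to 119 and 151 CPM on knockdown against 27.4 and 23.4 to 35.4 and 38.5 CPM in the Ssrp1 experiment, where the change did not pass (adjusted p = 0.17). Syce1, of the synaptonemal complex, differed likewise by log2 -2.06 (adjusted p = 0.02).

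Taf7l, a germ-cell TFIID subunit, and Tex101, a germ-cell surface glycoprotein, rose in both experiments by unequal amounts. Taf7l rose from 1.86 and 1.71 to 7.33 and 8.53 CPM in the Ssrp1 experiment and from 0.567 and 0.721 to 37.8 and 57.8 CPM in the Usp7 experiment. The effects of log2 2.15 ± 0.33 and 6.20 ± 0.39 differed by -4.05 ± 0.50 (adjusted p = 0.01; -4.35 to -3.75). The other 4 such genes were Tex101 (difference log2 -3.73, adjusted p = 0.016), the helicase Ddx4 (-2.97, adjusted p = 0.012), the piRNA factor Mael (-1.84, adjusted p = 0.046) and the testis ADP/ATP carrier Slc25a31 (-2.79, adjusted p = 0.037). Ddx4 itself stood at 14.3 and 17.9 CPM in the Ssrp1 controls, 26.7 and 36.8 in the libraries labelled Ssrp1 knockout, 8.78 and 11.4 in the Usp7 controls, then 132 and 179 in the knockdown, so its Ssrp1 effect of log2 0.98 passed only just (adjusted p = 0.049). Its control libraries did not overlap its perturbed ones in either experiment. Some list members leaned the other way, though no difference passed. Stra8, the retinoic-acid-induced trigger of meiosis, rose from 27.6 and 20.8 to 89.5 and 112 CPM in the Ssrp1 experiment and stood at 4.59 and 5.38 CPM and at 8.24 and 5.86 CPM in the Usp7 experiment (difference log2 1.56, adjusted p = 0.085). Meioc, a meiotic cofactor, rose in the Ssrp1 experiment by log2 2.47 (adjusted p = 0.008) with a difference of 1.42 (adjusted p = 0.27). Of 17 PRC1.6 subunits none passed in the Ssrp1 experiment (4 at an unadjusted p under 0.05 by edgeR). E2f6 alone passed in the Usp7 experiment (3 at an unadjusted p under 0.05). The list's median effects were log2 0.16 and 0.05, and with 2 libraries per group small changes may have been missed. E2f6 went from 29.6 and 33.3 to 66.4 and 76.0 CPM on knockdown and stood at 30.8 and 32.0 and at 21.1 and 23.5 CPM in the Ssrp1 experiment, a difference of log2 -1.67 ± 0.31 (adjusted p = 0.031).

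**Figure D2:**
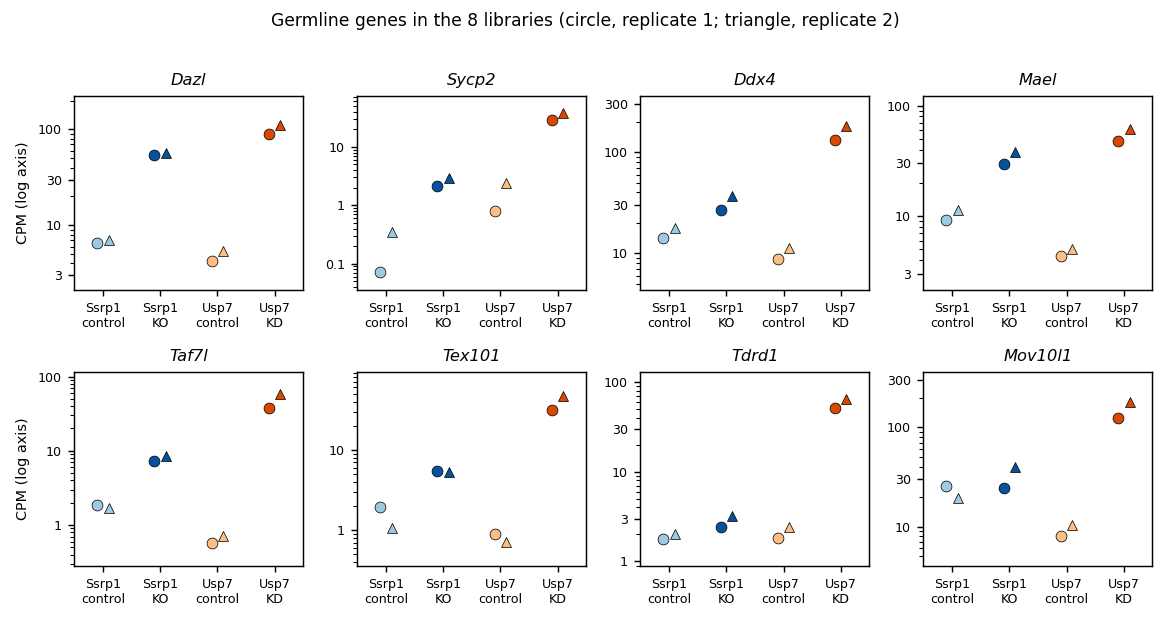
CPM (log axis) of 8 germline genes in the 8 libraries, by group, circles for replicate 1 and triangles for replicate 2. The 2 Usp7 knockdown libraries are the highest for each gene shown. Dazl, Sycp2, Ddx4, Mael, Taf7l and Tex101 are also higher in the libraries labelled Ssrp1 knockout than in their controls. There Tdrd1 is only slightly higher than in its controls and Mov10l1 overlaps them, and neither Ssrp1 effect passed.

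Further genes of the testis and of unrelated function also rose on Usp7 knockdown alone. The 23 Usp7-led genes (0.135% of genes tested) passed in the Usp7 experiment and in the difference but not in the Ssrp1 experiment. Btbd18, a regulator of piRNA cluster transcription, went from 1.87 and 1.66 to 27.7 and 45.9 CPM on knockdown and stood at 3.44 and 5.66 and at 8.14 and 5.48 CPM in the Ssrp1 experiment (difference log2 -3.80 ± 0.55, adjusted p = 0.014). Hsf5, a testis heat-shock-factor relative, differed by -3.65 ± 0.73 (adjusted p = 0.044). Zfp541, a meiotic zinc finger protein, stood at 8.87 and 26.0 CPM in the knockdown and at 0.169 to 0.717 CPM in the other 6 libraries, with 7 counts in the Usp7 controls, and its difference was log2 -7.02 ± 1.11 (adjusted p = 0.02). Mlc1, a membrane protein of astrocytes, stood at 5.81 and 10.6 CPM in the knockdown and under 1 CPM in the others (4 counts in the Usp7 controls; difference log2 -7.00 ± 1.06, adjusted p = 0.016). Mlc1 (chr15:88955884-88979007, mm10) lies close to the germline gene Mov10l1 (chr15:88982909-89055152). Ltb4r2, a leukotriene B4 receptor, differed by -4.61 ± 0.73 (adjusted p = 0.02). In Zfp541 and Hsf5, as in Tex101 above, the difference did not pass under limma-voom, and in Hsf5 not under the GC and length correction either.

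Few genes passed in both experiments in opposite directions, where few Usp7 effects passed at all. Of the 171 differences 133 had effects of opposite sign, which their choice by the difference favours, but both effects passed in only 2. Neurod1, a proneural transcription factor, stood at 5.81 and 8.20 CPM in the Ssrp1 controls, 1.49 and 1.75 in the libraries labelled Ssrp1 knockout, 3.46 and 5.16 in the Usp7 controls, then 17.6 and 17.5 in the knockdown. The knockdown pair was the highest and the pair labelled Ssrp1 knockout the lowest of the 4 groups. It fell by 2.10 ± 0.38 (log2 scale, adjusted p = 0.0095) in one experiment and rose by 2.03 ± 0.36 (adjusted p = 0.037) in the other, a difference of -4.13 ± 0.53 (adjusted p = 0.012; -4.49 to -3.88). Eif4g3, a translation initiation scaffold, fell from 14.3 and 15.5 to 3.39 and 7.91 CPM in the Ssrp1 experiment and rose from 44.0 and 43.1 to 125 and 190 CPM in the Usp7 experiment (difference log2 -3.24 ± 0.49, adjusted p = 0.016). The count of opposite genes was 0 without any 1 of Ssrp1 control replicate 1, the Usp7 controls or the knockdown libraries, 1 without Ssrp1 control replicate 2, and 20 and 29 without knockout replicates 1 and 2. In the neural list 3 of 16 tested members differed, all lower in the Ssrp1 experiment (medians log2 -0.55 and 0.35). They were Neurod1, Pax6, an eye and forebrain regulator, and Crmp1, an axon-guidance protein. None of the 3 was left without Usp7 control replicate 1 or knockdown replicate 2, 1 without knockdown replicate 1, and 2 without Ssrp1 control replicate 1 or Usp7 control replicate 2. Pax6 stood at 13 and 13.6, 4 and 3.79, 9.18 and 6.93, and 20.1 and 18.6 CPM in the same order of groups, with a difference of -3.03 ± 0.42 (adjusted p = 0.013). Only its Ssrp1 effect passed. Crmp1 fell from 51.3 and 49.1 to 10.9 and 10.5 CPM in the Ssrp1 experiment and stood at 57.3 and 58.9 and at 69.4 and 83.8 CPM in the Usp7 experiment. Vax2, on the same list, leaned the other way, with effects of log2 1.83 and -1.80. Its difference of 3.63 just missed the threshold (edgeR adjusted p = 0.053). Under DESeq2, with no filter and under the GC and length correction 1 member of the list was higher.

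Ccnd2, cyclin D2, which drives entry into the cell cycle, was the gene whose difference passed with each of the 8 libraries left out. It lies at chr6:127125162-127152193 (mm10) and stood at 25.8 and 38.7 CPM in the Ssrp1 controls, 2.44 and 2.03 in the libraries labelled Ssrp1 knockout, 20.1 and 16.9 in the Usp7 controls, then 30.9 and 42.8 in the knockdown. The libraries labelled Ssrp1 knockout were the lowest by a wide margin. It fell by 3.85 ± 0.33 on the log2 scale (adjusted p = 0.0011) in the Ssrp1 experiment, the Usp7 effect of 1.00 ± 0.29 did not pass (adjusted p = 0.22), and the difference was -4.84 ± 0.44 (adjusted p = 0.0039; -5.12 to -4.53 with each library left out). The other DNA replication and G1/S gene that differed was Ccne2, cyclin E2, in the other direction, at 3.51 and 3.13, 22.3 and 13.5, 14.7 and 15.9, and 14.5 and 15.5 CPM (difference log2 2.45 ± 0.45, adjusted p = 0.031). Its Ssrp1 controls were the group apart. Of the 50 members 4 rose and 1 fell in the Ssrp1 experiment and none passed in the Usp7 experiment (9 at an unadjusted p under 0.05). Among 38 G2/M genes Bub1 and Mad2l1, of the spindle checkpoint, differed by log2 1.65 and 1.41 (adjusted p = 0.044 and 0.049). Ccne2, Bub1 and Mad2l1 did not pass under limma-voom or under the GC and length correction, nor Mad2l1 under RLE factors.

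Lefty1 and Lefty2, secreted inhibitors and targets of Nodal, fell in the Ssrp1 experiment and were lowest in the libraries labelled Ssrp1 knockout. The knockdown pair of Lefty1 also lay under its controls, but that effect did not pass (log2 -0.44 ± 0.48, edgeR adjusted p = 0.83). Lefty1 stood at 179 and 115 CPM in the Ssrp1 controls, 10.5 and 2.20 in the libraries labelled Ssrp1 knockout, 53.6 and 47.8 in the Usp7 controls, then 34.3 and 40.5 in the knockdown (difference log2 -4.11 ± 0.71, adjusted p = 0.027; -5.63 to -3.40). Lefty2 stood at 152 and 195, 31.3 and 7.57, 105 and 114, and 124 and 160 CPM (difference -3.53 ± 0.67, adjusted p = 0.036; -4.90 to -2.87). In both genes knockout replicate 2 was the lower of its pair. They were the 2 of 19 Nodal pathway genes whose difference passed, and the list's medians were log2 -0.24 and 0.04. Lefty2 did not pass under the GC and length correction. Other genes that fell in the Ssrp1 experiment and differed were Ahnak2, a large scaffold protein, at 3.44 and 3.66, 0.611 and 0.452, 10.3 and 11.8, and 20.5 and 36.2 CPM (difference log2 -4.09 ± 0.55, adjusted p = 0.013), and the imprinted adaptor Grb10 (-2.63 ± 0.39, adjusted p = 0.014). Grb10 fell from 103 and 104 to 22.3 and 17.2 CPM, while the Usp7 experiment held 9.74 to 15.9 CPM in all 4 libraries. Hist1h1c, a linker histone, was the 1 of 46 tested histone genes that differed (-2.54 ± 0.44, adjusted p = 0.026). The histone list's median effects were log2 -0.98 and 0.30, and 4 of its 46 members had a difference above 0.

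**Figure D3:**
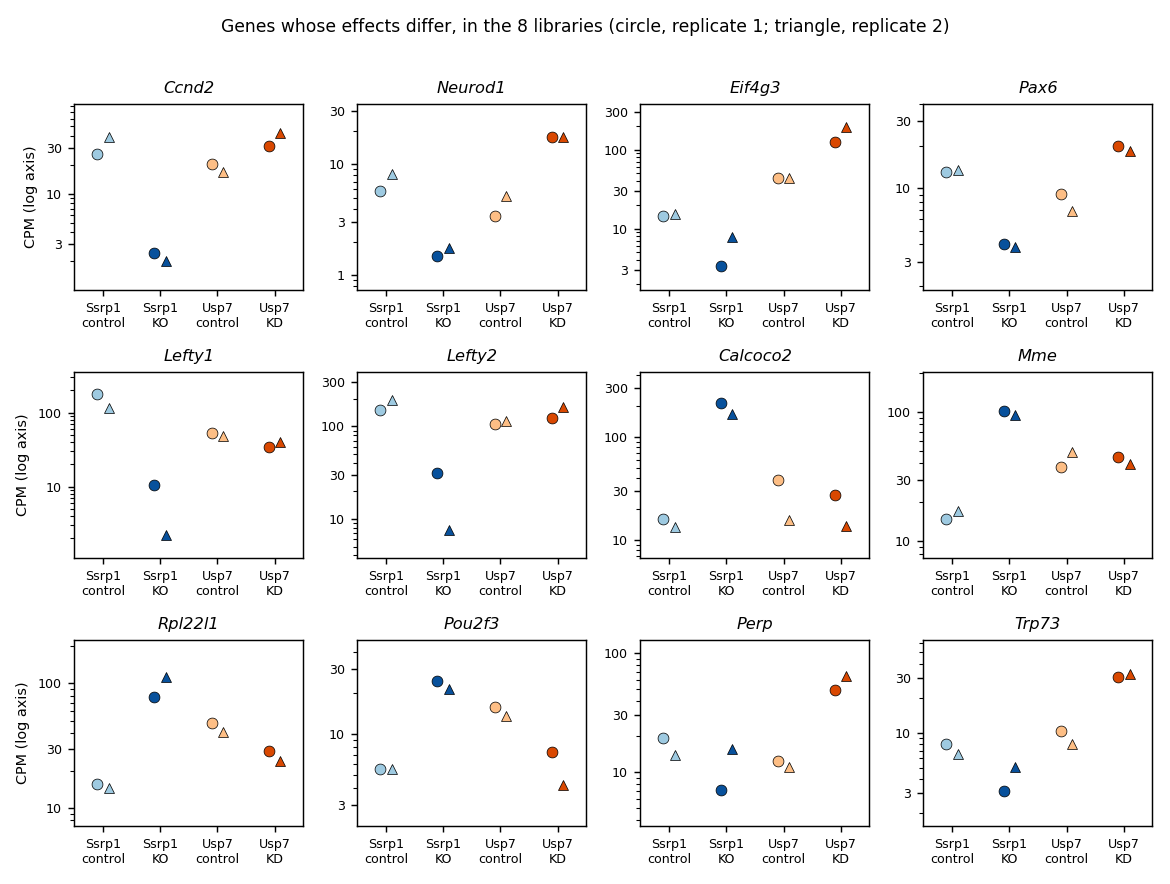
CPM (log axis) of 12 genes with a difference between effects that passed, in the 8 libraries by group, circles for replicate 1 and triangles for replicate 2. Ccnd2, Lefty1 and Lefty2 are lowest in the libraries labelled Ssrp1 knockout, and Perp and Trp73 are high only in the Usp7 knockdown. For Mme and Rpl22l1 the Ssrp1 controls lie below all other libraries.

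More 2-cell-like genes passed in the Ssrp1 experiment than in the Usp7 experiment, and 3 of 54 differed between experiments. Over all genes tested 6.11% rose in the Ssrp1 experiment, 0.434% rose in the Usp7 experiment and 1.00% had a difference that passed. Of 54 tested members (64 listed), 41 rose in the Ssrp1 experiment, 6 in the Usp7 experiment, the same 6 in both, and none fell. The 6 were 18 under DESeq2, 24 with no filter, 20 with the replicate block, 20 in the 4 Usp7 libraries alone and 1 under limma-voom, and 34 members passed in the Usp7 experiment at an unadjusted p under 0.05. The median effects were log2 3.15 and 2.44, and with members at 0 control counts set to their bounds (a floor of 3 counts over the group) 3.15 and 2.23. The difference passed in 3 members, higher in Calcoco2 and Mme and lower in Zfp750, with a list median of 0.54. Summed over the list the level was 354 and 543 CPM in the Ssrp1 controls, 1952 and 4553 in the libraries labelled Ssrp1 knockout, 105 and 95.7 in the Usp7 controls, then 213 and 172 in the knockdown. The Usp7 libraries all lay under the Ssrp1 controls. In the Usp7 controls most of the sum came from Mme and Calcoco2, whose levels are given below. Neither rose on knockdown (Usp7 effects of log2 -0.02 and -0.39). The sum in the Usp7 experiment therefore does not give the size of the rise in the other members, most of which were far lower. More cells in the state and more RNA per cell cannot be told apart in bulk RNA, here as for every gene. The number that rose in the Ssrp1 experiment was 9 without Ssrp1 control replicate 1 and 46 without knockout replicate 1. In the Usp7 experiment it was 0 without control replicate 1 or knockdown replicate 1, 1 without control replicate 2, 2 without knockdown replicate 2, 3 without either Ssrp1 control, and 21 without either knockout library. Of the 3 differences 0 were left without Ssrp1 control replicate 1, Usp7 control replicate 1 or knockdown replicate 2.

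Usp17le and Usp17lb, deubiquitinases of the 2-cell-like state with near-identical copies among which reads may be split, illustrate how low the Usp7 side was. Usp17lb rose from 4.66 and 7.26 to 49.0 and 101 CPM in the Ssrp1 experiment and from 0.17 and 0.111 to 2.48 and 1.78 CPM in the Usp7 experiment (5 control counts), with effects of log2 3.65 ± 0.40 and 3.86 ± 0.62 and a difference of -0.21 ± 0.64 (adjusted p = 0.92). Usp17le had 3 counts in the Usp7 controls against 119 in the knockdown, a ratio of 37.2 (95% exact interval 12.4 to 183, counting error only). Calcoco2, an autophagy receptor, stood at 15.9 and 13.5, 215 and 167, 38 and 15.6, and 27.1 and 13.7 CPM in the same order of groups. Only the libraries labelled Ssrp1 knockout were high (difference log2 4.10 ± 0.59, adjusted p = 0.014; 3.30 to 4.64). Mme, a membrane metallopeptidase, stood at 15.0 and 17.3, 102 and 95.1, 37.4 and 48.8, and 44.9 and 39.9 CPM (difference 2.63 ± 0.32, adjusted p = 0.01). Zfp750, an epidermal zinc finger factor, was at 9.18 and 4.96, 3.26 and 2.71, 5.72 and 5.49, and 19 and 18.8 CPM, and differed by -2.99 ± 0.52 (adjusted p = 0.027) although neither effect passed alone.

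Of the 104 genes higher in the Ssrp1 experiment 100 had a Ssrp1 effect that passed and 1, Usp7 itself, a Usp7 effect that passed. Their median effects were log2 2.28 and -0.29. In 87 the Ssrp1 controls were the lowest of the 4 groups. In 80 both Ssrp1 control libraries lay under all other 6, against 1903 of all genes tested (11.2%). In 75 both libraries labelled Ssrp1 knockout lay above all others, which was not counted over all genes tested. The choice of these genes by the difference favours both patterns, so they are descriptions only. Rpl22l1, a ribosomal protein paralogue, stood at 15.8 and 14.5 CPM in the Ssrp1 controls, 78.2 and 112 in the libraries labelled Ssrp1 knockout, 48.2 and 41.2 in the Usp7 controls, then 28.8 and 23.8 in the knockdown. The Ssrp1 effect of log2 2.65 ± 0.26 passed (adjusted p = 0.0014), the Usp7 effect of -0.77 ± 0.24 did not (adjusted p = 0.29), and the difference was 3.42 ± 0.35 (adjusted p = 0.0078; 3.10 to 3.64). It was the 1 of 81 cytosolic ribosomal protein genes with a difference that passed, beside list medians of log2 -0.75 and -0.31. Ly6a, a surface antigen, rose from 1.00 and 0.59 to 28.4 and 19.8 CPM, against 4.93 and 2.38 and 6.81 and 2.83 CPM in the Usp7 experiment (difference 4.52 ± 0.75, adjusted p = 0.025). Pou2f3, a tuft-cell transcription factor, stood at 5.52 and 5.49, 24.6 and 21.5, 15.7 and 13.6, and 7.39 and 4.24 CPM (difference 3.40 ± 0.47, adjusted p = 0.013). Apool, of the mitochondrial MICOS complex, and Uqcrb, a complex III subunit, differed by 3.61 ± 0.51 and 3.26 ± 0.53. Suz12, a core PRC2 subunit, stood at 76.0 and 101, 303 and 268, 166 and 185, and 178 and 165 CPM and Eloc (elongin C) differed with it (log2 1.73 and 1.81, adjusted p = 0.029 and 0.049), the 2 of 31 other polycomb subunits that passed. Eloc did not pass under RLE factors, limma-voom or the GC and length correction. The histone chaperone Nap1l1 (287 and 436, 1192 and 882, 784 and 647, and 495 and 419 CPM) was the 1 of 29 chaperone genes that differed (log2 2.17 ± 0.39, adjusted p = 0.029). It did not pass under the GC and length correction.

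The genes higher in the Ssrp1 experiment were lower in GC content than the rest. Their median was 40.5%, against 49.9% over all genes tested and 51.2% in the 67 genes lower in the Ssrp1 experiment, and median exonic lengths were 3266, 3757 and 4287 bases. After the GC and length correction 116 of the 171 differences still passed. In the 67 lower genes the Ssrp1 effect passed in 32, the Usp7 effect in 29 and neither in 13, with median effects of log2 -0.97 and 1.51. Both knockdown libraries lay above all other 6 in 52 of the 67, against 2115 of all genes tested (12.4%). Both libraries labelled Ssrp1 knockout lay below all others in 40, which was not counted over all genes tested. The choice of these genes favours both patterns. In 133 of the 171 the effects had opposite signs, and in 2 of them both effects passed.

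A run of zinc finger genes on chromosome 2 held 10 of the 104 genes. The region chr2:175061549-178078476 (mm10) was bounded, after the values were seen, by the genes that passed. Its 54 tested genes had median effects of log2 3.01 and 0.02 and a median difference of 2.90, and 33 rose in the Ssrp1 experiment and none passed in the Usp7 experiment. Their median level was 0.215 and 0.383 CPM in the Ssrp1 controls, 2.68 and 1.72 in the libraries labelled Ssrp1 knockout, 1.84 and 3.58 in the Usp7 controls, then 2.98 and 3.09 in the knockdown. The Ssrp1 controls were thus the low group. In 43 of the 54 genes both lay under all other 6 libraries, against 11.2% of all genes tested. Zfp970 stood at 0.215 and 0.531, 7.60 and 4.52, 6.17 and 7.98, and 6.02 and 6.54 CPM (difference log2 4.13 ± 0.69, adjusted p = 0.025). Zfp931 differed by 4.40 ± 0.74 (adjusted p = 0.025) but not under the GC and length correction. These genes are near copies of each other, so reads may be shared among them. With the GC and length correction the median difference was log2 1.97 and 6 of the 54 passed. Without Ssrp1 control replicate 1, Usp7 control replicate 1 or either knockdown library none of the 54 passed, and without knockout replicate 2 31 passed. Median differences by autosome lay between log2 -0.10 and 0.12. The X chromosome (595 genes tested) lay outside that range at 0.32, with median effects of 0.34 (Ssrp1) and -0.02 (Usp7). The Y chromosome (17 genes tested) was at -0.49. The cause was not tested.

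**Figure D4:**
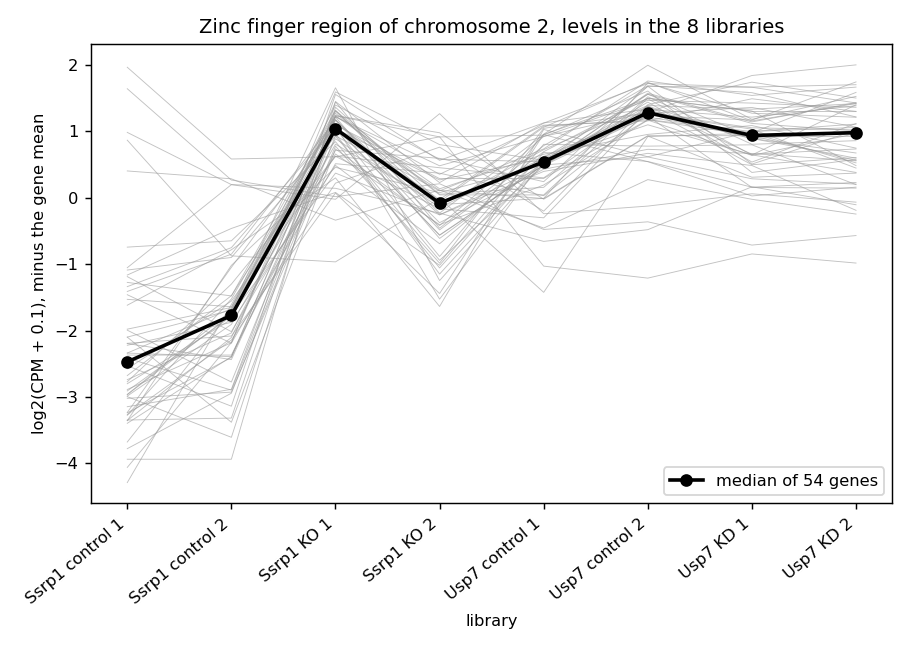
Levels of the 54 tested genes of the chromosome 2 zinc finger region in the 8 libraries, as log2(CPM + 0.1) minus each gene's mean over the libraries. Grey lines are genes and the black line is their median, which is lowest in the 2 Ssrp1 control libraries.

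Mitochondrially encoded transcripts rose in the Ssrp1 experiment and not in the Usp7 experiment. Of 13 genes 10 passed in the Ssrp1 experiment and 0 in the Usp7 experiment (0 by DESeq2 too, and 0 at p under 0.05 before adjustment), with medians of log2 2.84 and 0.08, and the difference passed in mt-Co1 and mt-Co3, subunits of cytochrome c oxidase. Genes of the mitochondrial chromosome, these 13 and its other genes together, took a share of all counts of 0.732% and 0.776% in the Ssrp1 controls, 7.31% and 2.81% in the libraries labelled Ssrp1 knockout, 2.23% and 1.67% in the Usp7 controls, then 2.44% and 2.03% in the knockdown. Knockout replicate 1 was the high library and the Ssrp1 controls the low pair. mt-Co1 stood at 2422 and 2557, 22807 and 12952, 8083 and 5768, and 8138 and 6711 CPM (difference log2 2.74 ± 0.49, adjusted p = 0.029). The number that rose in the Ssrp1 experiment was 2 and 3 without Ssrp1 control replicates 1 and 2 and 6 without knockout replicate 1. The difference passed in 3 of the 13 genes without knockout replicate 1, in 12 without knockout replicate 2 and in 0 without Ssrp1 control replicate 1, Usp7 control replicate 1 or either knockdown library. Nuclear and mitochondrial copies of some of these genes are near identical, so mt-Co3 in particular is uncertain.

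Targets of p53 leaned higher on Usp7 knockdown. In a list of 48 genes of the p53 loop and its targets 40 had a Usp7 effect above 0 and the median was log2 0.65, against -0.22 in the Ssrp1 experiment. With the shared spread few passed singly, with 3 higher in the Usp7 experiment (Perp, Trp73 and Ccng1) and 5 higher and 1 lower in the Ssrp1 experiment. The 3 were 12 under DESeq2, 14 with quality weights per group, 14 with no filter, 12 with the replicate block and 16 in the 4 Usp7 libraries alone. They became 0 without any 1 of the 4 Usp7 libraries, 1 without either Ssrp1 control, and 13 and 12 without knockout replicates 1 and 2. The difference passed in 2 (Perp and Trp73), in 0 without Ssrp1 control replicate 1 or any Usp7 library, and in 14 without knockout replicate 2. Perp, a p53-induced tetraspan protein, stood at 19.4 and 14.0, 7.12 and 15.6, 12.4 and 11.1, and 49.4 and 64.8 CPM in the same order of groups, so that only the knockdown was high (difference log2 -2.83 ± 0.50, adjusted p = 0.029). Trp73, the p53 relative p73, differed by -2.62 ± 0.46 (adjusted p = 0.027). Cdkn1a, the cell-cycle inhibitor p21, was at 105 and 74.5, 37.9 and 104, 57.1 and 58.0, and 151 and 169 CPM, and neither its Usp7 effect (log2 1.47, adjusted p = 0.16) nor its difference (-1.81 ± 0.53, adjusted p = 0.14) passed. Mdm2, the p53 ubiquitin ligase, had effects of log2 0.26 and 1.10 and Trp53 of -0.55 and 0.20, none of which passed.

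Most other lists held few genes that differed. Over all 17052 genes tested, 2581 had a difference at an unadjusted p under 0.05 by edgeR. For the effects alone the number at that threshold over all genes was not counted. HOX genes, very low throughout, had medians of log2 1.35 and 1.19 over 17 tested members. Trophoblast genes had 1.15 and 1.05 over 20. Neither list had a difference that passed (3 in each at an unadjusted p under 0.05). Primitive endoderm genes had medians of 0.87 and 0.15, with 8 rises and 1 fall in the Ssrp1 experiment and no difference that passed in 25 (9 at an unadjusted p under 0.05). Glycolysis genes (-0.24 and -0.56) and genes of the integrated stress response (-0.29 and -0.58) were below 0 in both. Of the 34 core and naive pluripotency genes none differed (7 at an unadjusted p under 0.05). Pou5f1, Sox2 and Nanog differed by log2 -0.23 ± 0.39, 0.65 ± 0.36 and 0.18 ± 0.32.

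**Figure D5:**
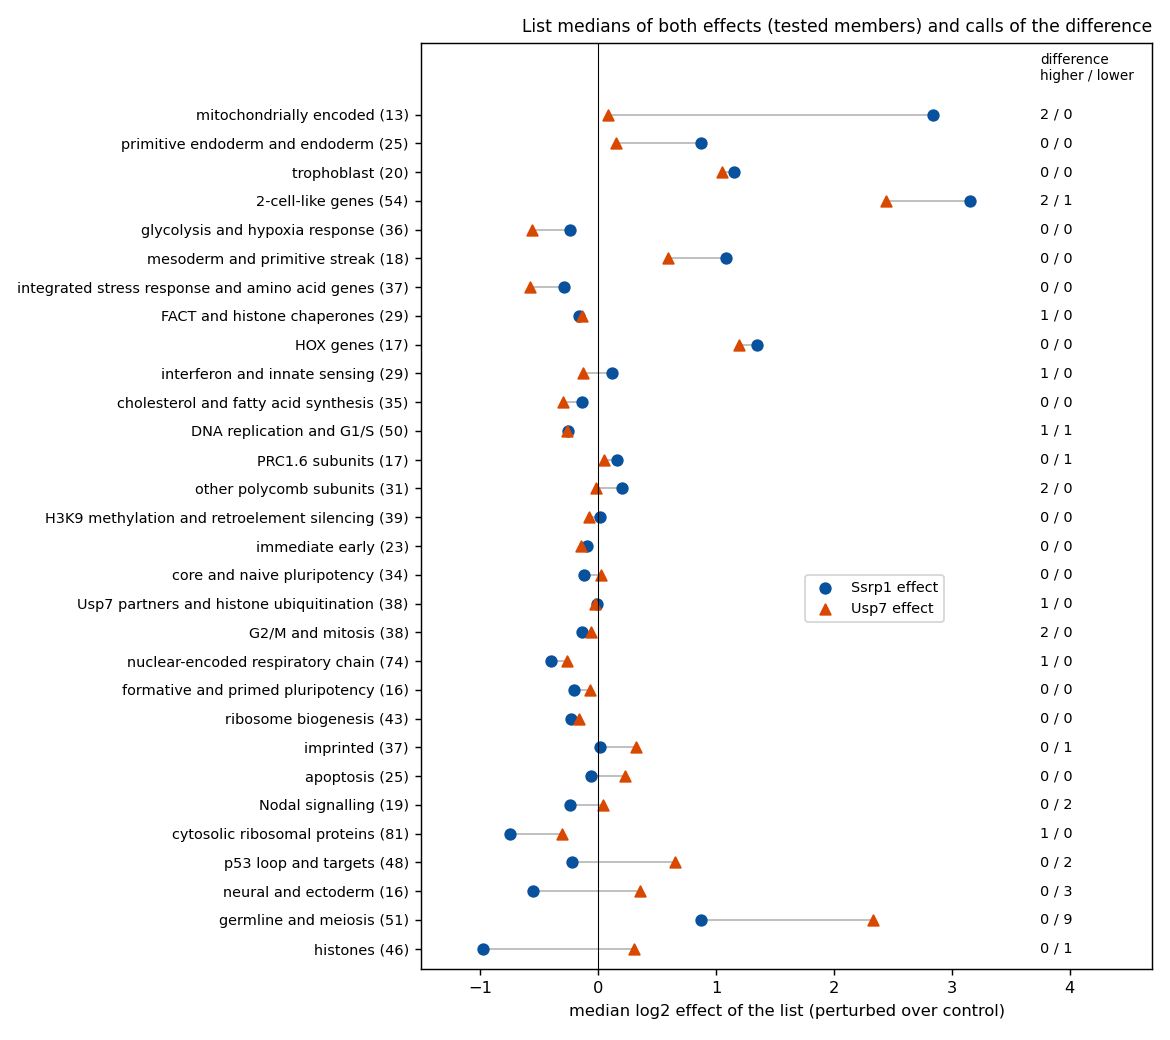
Median log2 effect (x axis, perturbed over control) of 30 gene lists, circles for the Ssrp1 effect and triangles for the Usp7 effect, ordered by the median difference, with tested members in parentheses. The right column counts members whose difference passed, higher / lower in the Ssrp1 experiment. The mitochondrially encoded list has medians of 2.84 and 0.08, the germline list 0.87 and 2.33 and the histone list -0.98 and 0.30.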

How the data were processed

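The deposited tables hold raw counts per gene, made by the authors with cutadapt, HISAT2 and featureCounts on mm10, per the submitters' processing notes. Tool versions, annotation and the treatment of strand and of multiply mapped reads are, in the sources used here, not given. The 2 tables (54232 gene rows each) were joined by Ensembl identifier, 92 spike-in rows with no counts were left out, and symbols came from GENCODE release M21 on GRCm38 (153 identifiers had none). edgeR 4.0.16 in R 4.3.3 was fitted to all 8 libraries with 4 group means, TMM factors, the default count filter (17052 genes kept) and the quasi-likelihood test. P-values were adjusted by Benjamini-Hochberg over all genes tested. Each SE is the absolute log2 effect divided by the square root of the quasi-likelihood F statistic. It is approximate, and the SE of a difference need not follow from those of its effects. The 4 groups shared 1 spread per gene, on 4 residual degrees of freedom, and intervals cover counting error only. CPM values use TMM-scaled totals.

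Named genes followed a rule: given a mean of 5 CPM or more in the highest group and 10 or more counts in some library, the 8 largest differences per direction, up to 8 shared, 6 opposite and 6 Usp7-led genes per direction, the 2 (or 4) largest differences of each list, and 9 fixed genes. Predicted genes (Gm and the like) were left out. Stra8, Meioc, Piwil2, Piwil4, Gpat2, Tdrkh, Syce1, Crmp1, Vax2, Ccng1, Mael, Ddx4 and Slc25a31 were named after their values were seen. Members and lists were chosen with earlier results of these data known. Alternatives were DESeq2 1.42.0, RLE factors, other filters, limma-voom (limma 3.58.1), with and without group quality weights, a replicate block, GC and length correction, no mitochondrial genes, each effect in its own 4 libraries, and each library left out.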

Additional observations from a re-analysis of the deposited data

How the results depend on the processing

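Counts are given as higher and lower genes. For the difference between effects (main 104 and 67) DESeq2 gave 424 and 249, no filter on low counts 637 and 308, and limma-voom 65 higher. For the Ssrp1 effect (1042 and 272) DESeq2 gave 605 lower, no filter 1710 and 710, quality weights per group 589 and 78, and its own 4 libraries 534 and 51. For the Usp7 effect (74 and 4) DESeq2 gave 231 and 62, no filter 323 and 106, quality weights 326 and 116, its own libraries 376 and 100, and GC and length correction 13 lower. Shared genes (28) numbered 81 under DESeq2, 122 with no filter, 16 under limma-voom and 46 in own libraries. Opposite genes (2) numbered 21, 25, 1 and 5 in that order and 4 with quality weights. The cause of these moves was not tested. Over the 8 fits with a library left out, the difference gave 0 to 685 higher and 1 to 424 lower genes, the Ssrp1 effect 40 to 1447 and 8 to 624, the Usp7 effect 15 to 286 and 0 to 67, shared genes 2 to 93 and opposite genes 0 to 29. A group left with 1 library is assumed to vary like the others. Replicate numbers were not known to pair samples: deviations of same-numbered libraries correlated at 0.177 (Ssrp1) and 0.123 (Usp7) over 1 pair of groups each. The replicate block gave 320 and 205 for the difference, 612 lower for the Ssrp1 effect, 214 and 44 for the Usp7 effect, 85 shared and 12 opposite genes. The block with GC and length correction gave 223 and 154, 654 lower, 228 and 47, 90 and 8. No named gene's difference reversed under any of these. Of the 171 differences, DESeq2 kept 170, limma-voom 111 and quality weights 154. Of the 28 shared genes, DESeq2 kept 28, GC and length correction 18, limma-voom 15, own libraries 15 and quality weights 13. Depth limits genes with under about 10 counts in a group, and 2 libraries per group limit every comparison.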
